A study of Homo sapiens with 6 samples.

Results

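The NRF2 pathway and glutathione genes examined here were NFE2L2, KEAP1, GCLC, GCLM, TXNRD1, SRXN1, NQO1, HMOX1 and ABCC2, 9 of the 19775 genes that could be named on the array. Their members were all 18 probe sets that the platform annotation assigns to one of these symbols alone, where a probe set is a group of short oligonucleotides that together read 1 stretch of a transcript. NFE2L2, GCLC, GCLM and NQO1 had 3 probe sets each, TXNRD1 had 2, and the other genes had 1 each. RNA came from MCF10A, a line of human breast epithelial cells that does not form tumours, in 2 groups of 3 samples. The shFRY samples carried a stably transfected shRNA against FRY, the human homologue of Drosophila furry, and the control samples carried a non-targeting shRNA. Both groups were selected with puromycin, each was 1 stable clone, and passage number varied within a group. All cells grew in mammary epithelial medium with epidermal growth factor, insulin, hydrocortisone and bovine pituitary extract, and RNA was taken before confluence. Clone and shRNA therefore cannot be told apart, and p-values measure only the spread between the samples of 1 clone, which may be technical.

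NRF2, the transcription factor encoded by NFE2L2, is held in the cytoplasm by KEAP1, which hands it to a ubiquitin ligase built on CUL3 and RBX1 for degradation. Oxidants and electrophiles modify KEAP1, and the NRF2 that then escapes degradation pairs with small MAF proteins on antioxidant response elements. The genes switched on in this way make glutathione, reduce thioredoxin, detoxify quinones, degrade heme and export conjugates. BACH1 occupies the same elements as a repressor, and HMOX1 is its best known target. NRF2 is controlled mainly through its protein stability, which RNA arrays do not measure.

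FRY itself had log2 signals of 2.88, 3.31 and 3.14 in the shFRY samples and 4.23, 3.55 and 3.81 in the control samples at probe set 204072_s_at. This was the only FRY probe set of 4 that passed (-0.75, SE 0.19, limma adjusted p = 0.0223), and the other differences lay between -0.49 and -0.32. Over all probe sets, r was 0.992 to 0.995 within the groups and 0.972 to 0.978 between them. The array carries beta-actin probe sets at both transcript ends, and their 3′ minus 5′ signal, which grows as RNA or its copies shorten, was 2.87 ± 0.03 in shFRY and 2.52 ± 0.19 in control samples (log2, SD, n = 3 each). The groups did not overlap in it (two-sided exact permutation p = 0.1, which no split of 6 samples into groups of 3 can go below), so it moved with every result described here. For GAPDH, the corresponding signal averaged -0.07 in shFRY and -0.09 in control samples. The GAPDH difference was 0.02, the groups overlapped, and the same permutation test gave p = 0.4. Of these transcripts, only beta-actin separated the groups. Of 8 listed epithelial markers 6 were measured. All 6 lay above the median of all values (3.04), among them KRT5 (11.56 and 11.47, mean log2 signal in shFRY and control), EPCAM (10.07 and 10.08) and CDH1 (11.36 and 11.00). KRT19 (3.09 and 3.06) was barely above that median. Of these 6, KRT14 (10.81 and 7.89) and CDH1 passed as higher in shFRY and KRT18 (10.20 and 10.57) as lower, and their summed log2 signal was 57.02 to 57.18 in shFRY and 53.7 to 54.3 in control samples. Of 7 measured markers of stromal, immune, endothelial and fat cells, 5 lay below that median in their mean. The exceptions were PECAM1 (7.40 and 7.54) and COL1A1 (4.34 and 4.62), the list's summed log2 signal was 20.3 to 20.5 in shFRY and 21.3 to 22.2 in control samples, and 1 of its genes, PTPRC, passed as lower (2.13 and 3.19). The part of the keratin difference and of other cell types in these results was not tested, and in bulk RNA fewer cells expressing a gene and less RNA per cell cannot be told apart.

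At a limma adjusted p threshold of 0.05, the members had 9 of 18 probe sets that passed, 2 with higher and 7 with lower signal in shFRY, while 23.1% of all 54613 probe sets passed (10.9% higher and 12.2% lower). NQO1, HMOX1, ABCC2 and KEAP1 fell in shFRY cells, SRXN1 rose by less, and GCLC and TXNRD1 did not pass at any probe set. NFE2L2 and GCLM each passed at 1 of their 3 probe sets, NFE2L2 as higher and GCLM as lower. The groups did not overlap at 10 member probe sets, 3 higher and 7 lower in shFRY, against 39.2% of all probe sets (20.2% higher and 19% lower). At least 2-fold differences were found at 5 member probe sets, all lower in shFRY and belonging to NQO1, HMOX1 and ABCC2, against 6.28% of all probe sets (2.9% higher and 3.38% lower). With 1 probe set per gene, 6 of the 9 genes passed, 2 higher and 4 lower, against 29.8% of all genes (13.7% higher and 16% lower). At least 2-fold changes were left at 3 of the 9 genes, all lower, against 7.5% of all genes (3.42% higher and 4.08% lower). Of these, ABCC2 (-1.003) and NQO1 (-1.02) lay close to the 2-fold limit. With each sample centred on its median they were at -0.98 and -0.99, short of it. With quantile normalization ABCC2 was at -0.93 and NQO1 at -1.01. The members were mostly bright, and 16 of the 18 probe sets lay above the median mean signal. With only probe sets above that median, 2552 genes were called higher and 3303 lower, against 2718 and 3171 without this filter. Fewer genes are tested with the filter, so similar counts do not mean similar shares. The shares of all probe sets and genes include dim ones and may therefore be too low a yardstick for the members. Shares at matched signal were not computed, for the members or for the lists below.

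**Figure D1:**
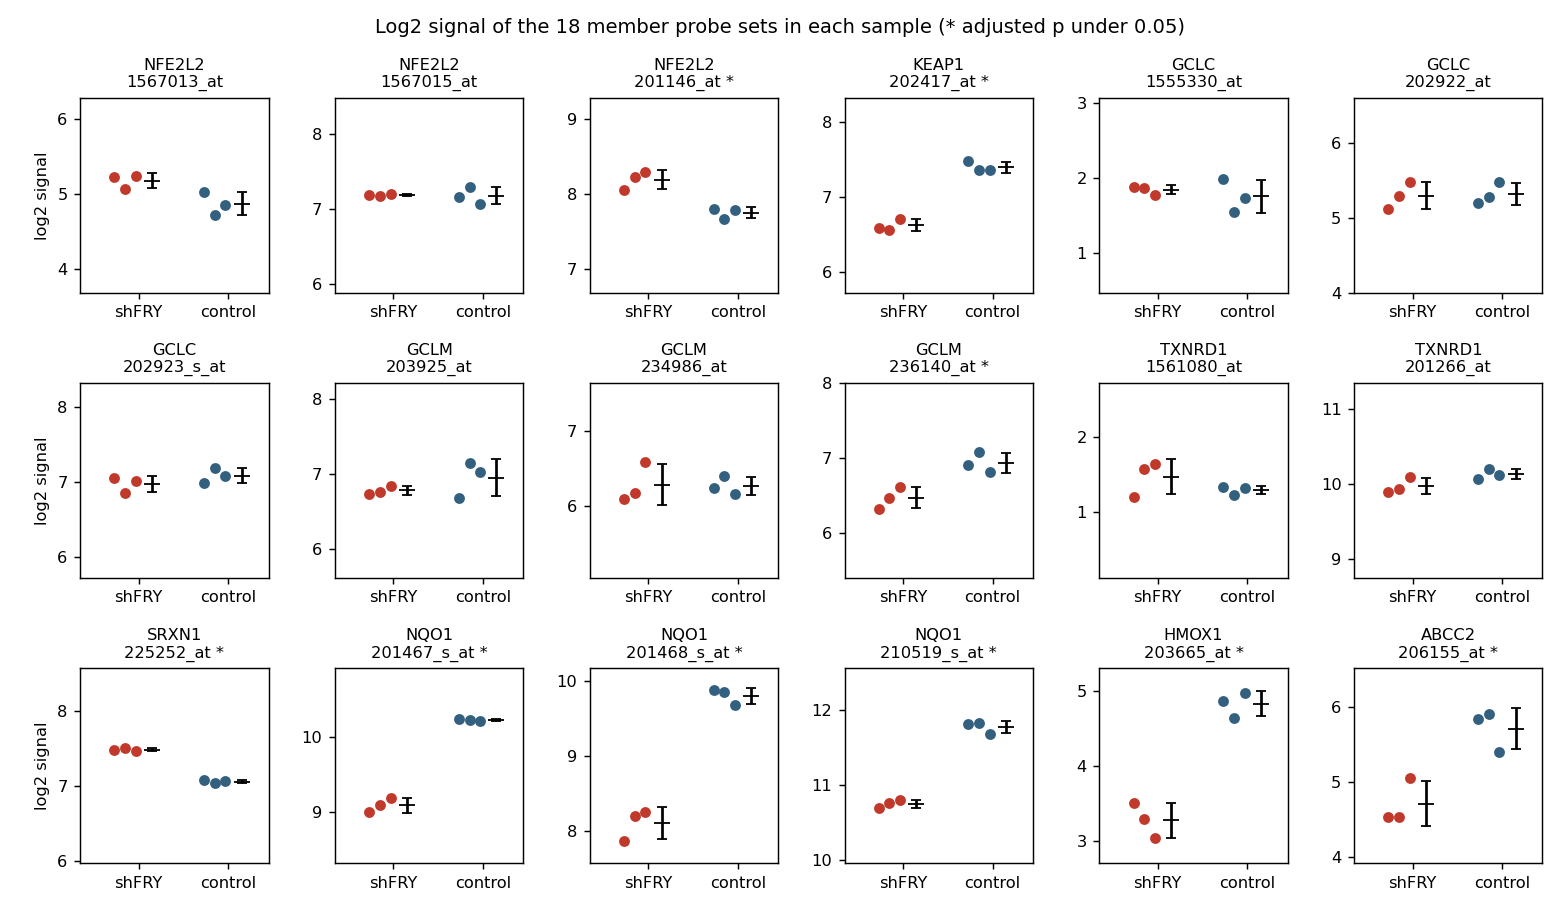
Log2 signal (vertical axis) of each member probe set in the 3 shFRY samples (red, left) and the 3 control samples (blue, right), with the group mean and SD in black; every panel spans the same range of log2 units. The group means are furthest apart at the NQO1, HMOX1, ABCC2 and KEAP1 probe sets, and closer at SRXN1 and at NFE2L2 probe set 201146_at. The groups overlap at all GCLC and TXNRD1 probe sets.

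Of the regulators, KEAP1 was lower in shFRY, and NFE2L2 was higher at the probe set that passed. KEAP1, the sensor that marks NRF2 for degradation, had log2 signals of 6.60, 6.57 and 6.72 in the shFRY samples and 7.49, 7.36 and 7.36 in the control samples at its only probe set, 202417_at. No shFRY sample reached the lowest control sample. The difference was -0.78 (SE 0.10, 95% confidence interval -1.02 to -0.54, limma adjusted p = 0.00115), which leaves 58.3% of the control signal. NFE2L2 had 8.05, 8.23 and 8.30 in the shFRY samples and 7.80, 7.67 and 7.80 in the control samples at probe set 201146_at. Every shFRY sample was above every control sample there, by 0.44 on average (SE 0.11, limma adjusted p = 0.0234), a 1.35-fold difference.

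The 3 NFE2L2 probe sets did not give the same picture. At 1567013_at the shFRY samples (5.23, 5.06 and 5.24) were also all above the control samples (5.03, 4.73 and 4.85), but the difference of 0.31 (SE 0.12) did not pass (limma adjusted p = 0.106). At 1567015_at the shFRY samples (7.18, 7.17 and 7.20) lay inside the range of the control samples (7.17, 7.30 and 7.07), with a difference of 0.01 and a 95% confidence interval of -0.24 to 0.25. Probe set 1567014_s_at, annotated to NFE2L2 together with CSNK2A1 and therefore no member, was at 7.15 ± 0.07 in shFRY and 7.21 ± 0.07 in control samples (SD, n = 3 each) and overlapped between the groups. The NFE2L2 call at 201146_at is therefore carried by 1 probe set. It held when shFRY replicate 1 was left out and was lost without any other single sample (limma adjusted p = 0.0571 to 0.0854). Over the 6 samples, the genes whose signal followed NFE2L2 most closely were SYT3, RIPOR2 and ZNF233, with Pearson r of 0.999, 0.996 and 0.993; 6 samples that fall into 2 groups give high values to any gene with a similar group difference, and these are a description only.

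The promoter of KEAP1 is shown because it and the promoter of GCLM, a glutathione synthesis gene described next, hold the same form of the antioxidant response element core. RefSeq promoter windows (GRCh38.p14, 250 bases before to 50 after each gene start) were found for 8 of the 9 genes, 11 windows in all, and were searched on both strands for TGACNNNGC. No other motif was searched. It occurred in 4 of the 11 windows, 1 of the 2 of KEAP1, both of TXNRD1 and the 1 of GCLM, against 13.3% of 35116 windows of all genes. The form TGACTAAGC occurred on the opposite strand 31 to 23 bases before the KEAP1 start and 34 to 26 bases before the GCLM start. This form was picked because it recurred among these same matches, so its presence in 36 of all windows (0.103%) is a description only. NQO1, whose signal fell at every probe set, is shown beside KEAP1 and GCLM, and its window holds no match. A match is a description of the letters and not of binding, and no match says only that the letters are absent from this window. The capitals mark the matches, and each window is written 5′ to 3′ on the strand of its gene as the RefSeq table gives it, which is the minus strand for all of KEAP1 (chr19:10502722-10503021), GCLM (chr1:93909381-93909680) and NQO1 (chr16:69726511-69726810).
KEAP1: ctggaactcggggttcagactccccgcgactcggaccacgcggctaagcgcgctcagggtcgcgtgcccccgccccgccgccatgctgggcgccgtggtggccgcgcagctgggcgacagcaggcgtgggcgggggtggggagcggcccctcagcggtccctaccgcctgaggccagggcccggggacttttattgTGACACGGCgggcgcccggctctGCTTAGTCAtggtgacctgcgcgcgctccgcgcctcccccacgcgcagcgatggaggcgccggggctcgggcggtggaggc
GCLM: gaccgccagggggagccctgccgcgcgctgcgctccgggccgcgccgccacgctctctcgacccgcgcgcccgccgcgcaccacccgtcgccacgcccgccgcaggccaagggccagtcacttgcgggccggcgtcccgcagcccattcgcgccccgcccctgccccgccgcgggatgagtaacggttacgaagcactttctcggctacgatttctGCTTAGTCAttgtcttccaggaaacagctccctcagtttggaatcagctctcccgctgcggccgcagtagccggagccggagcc
NQO1: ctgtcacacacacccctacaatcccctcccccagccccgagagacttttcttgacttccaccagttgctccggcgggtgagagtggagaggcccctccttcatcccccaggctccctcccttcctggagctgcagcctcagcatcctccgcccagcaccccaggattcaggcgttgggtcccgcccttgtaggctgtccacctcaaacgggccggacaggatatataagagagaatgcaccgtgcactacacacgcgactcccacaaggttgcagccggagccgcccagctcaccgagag

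The probe sets of GCLC and GCLM showed no difference that was shared within a gene. GCLC encodes the catalytic subunit of glutamate-cysteine ligase, the rate-limiting enzyme of glutathione synthesis, and GCLM its modifier subunit. At the brightest GCLC probe set, 202923_s_at, the shFRY samples had 7.06, 6.86 and 7.02 and the control samples 6.99, 7.20 and 7.09, so the groups overlapped. The difference was -0.11 with a 95% confidence interval of -0.37 to 0.14 (limma adjusted p = 0.530). Probe sets 202922_at (-0.02, interval -0.33 to 0.28) and 1555330_at (0.09, interval -0.21 to 0.39) overlapped as well, and 1555330_at was dim, its mean lying at percentile 24.1 of all probe sets. A 2-fold difference in either direction lies outside all 3 intervals.

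For GCLM, probe set 236140_at had 6.32, 6.47 and 6.61 in the shFRY samples and 6.90, 7.08 and 6.81 in the control samples. The groups did not overlap there, and the difference was -0.46 (SE 0.12, limma adjusted p = 0.0277). The other GCLM probe sets overlapped. At 203925_at the shFRY samples had 6.73, 6.77 and 6.85 and the control samples 6.68, 7.15 and 7.03 (difference -0.17, interval -0.49 to 0.15). At 234986_at the shFRY samples had 6.09, 6.17 and 6.59 and the control samples 6.24, 6.40 and 6.17 (difference 0.01, interval -0.33 to 0.36). The fall at 236140_at was lost without control replicate 1 or 2 or shFRY replicate 1 or 2 (limma adjusted p = 0.0676 to 0.1).

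The genes of thioredoxin and peroxiredoxin repair differed from each other. SRXN1 encodes sulfiredoxin, which restores overoxidised peroxiredoxins, and its probe set 225252_at had 7.48, 7.51 and 7.47 in the shFRY samples and 7.08, 7.03 and 7.07 in the control samples. The shFRY samples were all higher, and both groups had an SD of 0.02, among the smallest of any member. The difference was 0.43 (SE 0.10, limma adjusted p = 0.0134), or 1.34-fold. It missed the threshold without control replicate 2 (limma adjusted p = 0.0514). TXNRD1, the cytosolic thioredoxin reductase, had 9.90, 9.94 and 10.09 in the shFRY samples and 10.07, 10.21 and 10.12 in the control samples at probe set 201266_at, with an overlap through shFRY replicate 3. Its difference of -0.16 (interval -0.41 to 0.09) did not pass (limma adjusted p = 0.336). Its second probe set, 1561080_at, lay at percentile 7.34 of all probe sets and overlapped too (difference 0.18, interval -0.13 to 0.49).

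NQO1 and HMOX1 had the largest differences of the 9 genes at their probe sets. NQO1, the quinone reductase widely used as a readout of NRF2, was bright in both groups. At 210519_s_at it had 10.70, 10.76 and 10.80 in the shFRY samples and 11.81, 11.82 and 11.68 in the control samples. At 201467_s_at the shFRY samples had 8.999, 9.09 and 9.20 and the control samples 10.25, 10.23 and 10.21. At 201468_s_at the shFRY samples had 7.86, 8.20 and 8.26 and the control samples 9.88, 9.85 and 9.69. Every shFRY sample was below every control sample at all 3 probe sets, and the gap between the groups exceeded the range within either. The differences were -1.02 (SE 0.10), -1.14 (SE 0.10) and -1.70 (SE 0.13), with limma adjusted p-values of 0.000266, 0.000168 and 9.01e-05. The signal left in shFRY was 49.2%, 45.5% and 30.8% of the control signal. The confidence interval of 201468_s_at, -2.01 to -1.39, lay below those of 210519_s_at (-1.26 to -0.79) and 201467_s_at (-1.37 to -0.90), a difference between probe sets that was not tested. All 3 NQO1 probe sets are of the _s_at kind, whose oligonucleotides can match more than 1 transcript.

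HMOX1 encodes heme oxygenase-1, which breaks heme down to biliverdin, iron and carbon monoxide. Its only probe set, 203665_at, had 3.50, 3.29 and 3.04 in the shFRY samples and 4.87, 4.65 and 4.97 in the control samples. The groups were more than a log2 unit apart. The difference was -1.55 (SE 0.15, interval -1.90 to -1.21, limma adjusted p = 0.000222), leaving 34.1% of the control signal. The shFRY signals were close to the median of all values (3.04), a range in which RMA compresses differences.

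ABCC2, an apical pump that exports glutathione conjugates, had 4.54, 4.54 and 5.06 in the shFRY samples and 5.84, 5.91 and 5.40 in the control samples at probe set 206155_at. The groups did not overlap, although replicate 3 of each group lay closer to the other group than replicates 1 and 2 did. The difference was -1.003 (SE 0.19, interval -1.44 to -0.57, limma adjusted p = 0.00611), leaving 49.9% of the control signal. Its SDs, 0.30 in shFRY and 0.28 in control samples, were the largest of any called member.

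**Figure D2:**
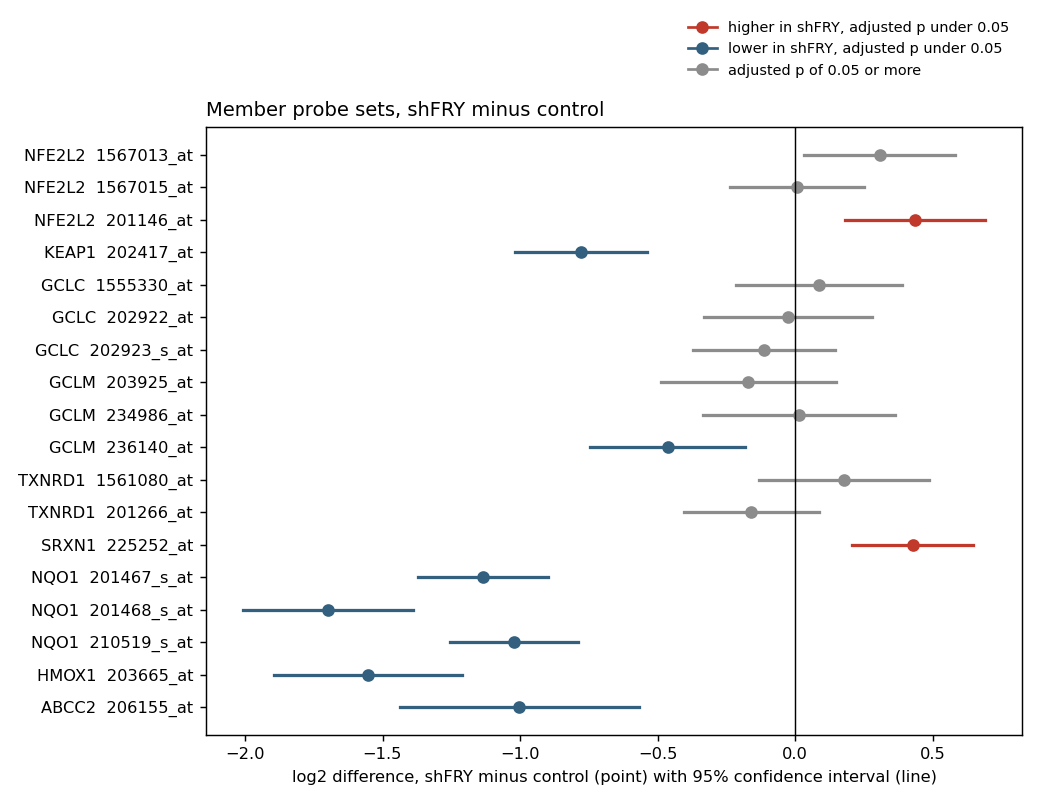
Log2 difference (shFRY minus control, horizontal axis) of the 18 member probe sets, with 95% confidence intervals from limma; red marks probe sets higher in shFRY and blue those lower at an adjusted p under 0.05, and grey the rest. The NQO1, HMOX1 and ABCC2 probe sets lie between -1.70 and -1.003, KEAP1 at -0.78, and the called NFE2L2 and SRXN1 probe sets at 0.44 and 0.43.

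The falls of NQO1, HMOX1, ABCC2 and KEAP1 were called whichever single sample was left out. With the beta-actin 3′ minus 5′ difference of each sample as a covariate, HMOX1 was at -1.70 (limma adjusted p = 0.0338) and NQO1 at -1.49 and -1.08 at 201468_s_at and 201467_s_at (0.0332 and 0.0450), and these 3 of the 9 called probe sets passed. NQO1 210519_s_at (-0.90), KEAP1 (-0.64) and ABCC2 (-0.51) kept their sign with limma adjusted p-values of 0.0686, 0.165 and 0.499. SRXN1 (0.43), NFE2L2 201146_at (0.46) and GCLM 236140_at (-0.34) had 0.328, 0.373 and 0.561. Among the called probe sets the covariate moved the ABCC2 difference most, and it widened every confidence interval.

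**Figure D3:**
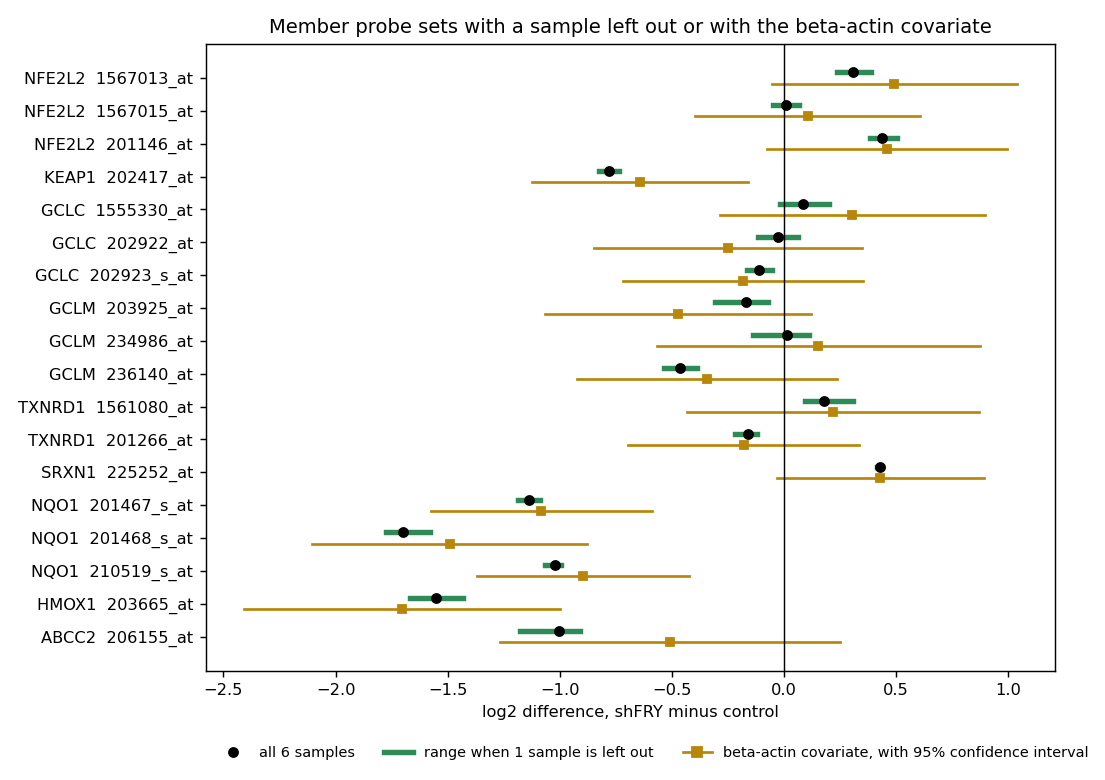
Log2 difference (shFRY minus control, horizontal axis) of the 18 member probe sets with all 6 samples (black), its range when 1 sample is left out (green) and its value with the beta-actin covariate and 95% confidence interval (ochre). The NQO1, HMOX1 and KEAP1 intervals stay below 0 with the covariate, while those of ABCC2, SRXN1 and NFE2L2 include 0.

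Partners and competitors of NRF2 were more often higher than lower in shFRY. Of 13 measured genes of this list, 6 rose and 3 fell, with a median log2 difference of 0.40, against 13.7% of all genes higher, 16% lower and a median of 0.03. BACH1, the repressor of antioxidant response elements, had 6.62, 6.57 and 6.63 in the shFRY samples and 4.42, 4.20 and 4.36 in the control samples. It had the largest difference of the list at 2.28 (SE 0.10, limma adjusted p = 3.77e-06), and 2 of its 3 probe sets were called higher and 0 lower. With the mean of its probe sets, BACH1 was at 1.11 (limma adjusted p = 0.000135). The small MAF gene MAFF, whose protein pairs with both NRF2 and BACH1, rose by 1.04 (9.69 ± 0.10 in shFRY and 8.65 ± 0.12 in control samples, SD, n = 3 each). GSK3B, a kinase that marks NRF2 for a second route of degradation, rose by 0.73, and DPP3, a peptidase that binds KEAP1, fell by 0.88. CUL3 (-0.37) and RBX1 (-0.61), the ligase partners of KEAP1, fell too and are named here after their values were seen.

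**Figure D4:**
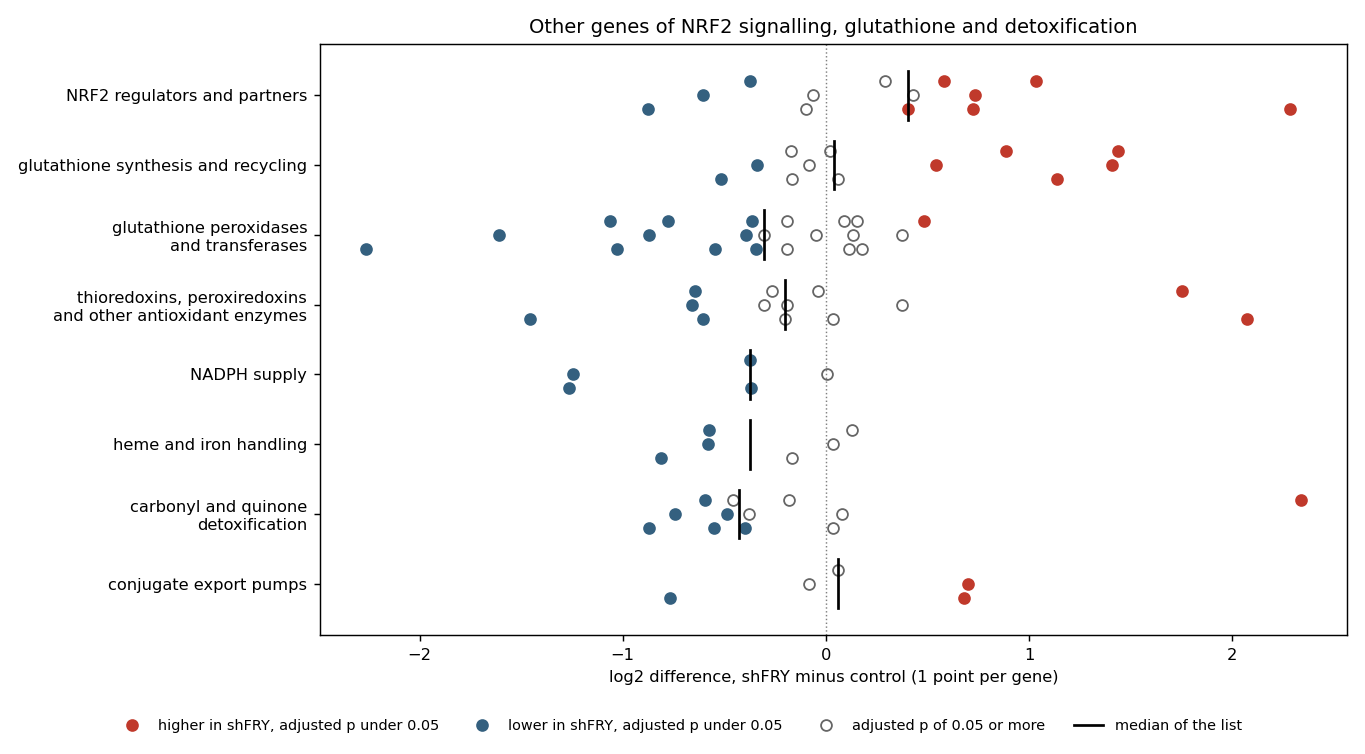
Log2 difference (shFRY minus control, horizontal axis) of 87 other genes in 8 lists, 1 point per gene, with filled red or blue points for genes higher or lower in shFRY at an adjusted p under 0.05, open points for the rest and a bar at each list's median. Medians run from -0.43 for carbonyl and quinone detoxification to 0.40 for NRF2 regulators and partners.

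Several genes of cystine import and glutathione handling rose, and several conjugating enzymes fell. Of 12 genes of glutathione synthesis and recycling, 5 rose and 2 fell (median 0.04). SLC7A11, the cystine carrier of system xc-, had 10.09, 10.01 and 9.91 in the shFRY samples and 8.41, 8.80 and 8.49 in the control samples, and all 3 of its probe sets were called higher. It rose by 1.44 (SE 0.13, limma adjusted p = 0.000119), with CHAC1, an enzyme that degrades glutathione (1.41), the glutaredoxin gene GLRX (1.14) and SLC3A2, the partner chain of SLC7A11 (0.89). GSS, glutathione synthetase, was called higher at both of its probe sets (0.54, limma adjusted p = 0.00495) and is named after its values were seen. The 2 genes of this list that fell are named after their values were seen too. They were the glutaredoxin gene GLRX5 (-0.51, limma adjusted p = 0.00345) and GSR, glutathione reductase (-0.34, limma adjusted p = 0.0385). GSR was called at the gene level only. SLC7A11 and CHAC1 are also known targets of ATF4. Of 21 glutathione peroxidase and transferase genes, 10 fell and 1 rose (median -0.31). GSTA4, which conjugates the lipid peroxidation product hydroxynonenal, had 4.06, 5.19 and 5.54 in the shFRY samples and 7.30, 6.91 and 7.36 in the control samples, a log2 difference of -2.26 (SE 0.34, limma adjusted p = 0.00163) with a wide spread in shFRY. GSTT2 (-1.61), MGST3 (-1.06) and GSTK1 (-1.03) followed. GSTT2 has a near-identical copy in the genome, so its signal cannot be assigned to 1 gene, and MGST3 was called at 1 of its 3 probe sets, was at -0.59 with their mean, and was at -0.46 (limma adjusted p = 0.11) without _s_at and _x_at probe sets.

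Among 13 genes of thioredoxins, peroxiredoxins and other antioxidant enzymes, 2 rose and 4 fell (median -0.20). The mitochondrial superoxide dismutase gene SOD2 rose by 2.07 (11.85 ± 0.04 in shFRY and 9.78 ± 0.10 in control samples) and TXNIP, the inhibitor of thioredoxin, by 1.75 (11.24 ± 0.09 and 9.49 ± 0.08; SD, n = 3 each). Both were higher in every shFRY sample, with limma adjusted p-values of 5.58e-06 and 1.47e-05. SOD2 is also a well known NF-kB target. Catalase, encoded by CAT, fell by 1.46 and PRDX2, a cytosolic peroxiredoxin, by 0.66. Of 5 genes of NADPH supply, 4 fell and 0 rose (median -0.38). The cytosolic isocitrate dehydrogenase gene IDH1 (-1.27) and PGD of the pentose phosphate pathway (-1.24) fell, as did TKT (-0.38) and TALDO1 (-0.37). PGD was called lower at 1 of its 3 probe sets, and the mean of its probe sets was at -0.41 (limma adjusted p = 0.0212). The calls of TKT and TALDO1 were each lost without shFRY replicate 1 or any single control replicate (limma adjusted p up to 0.0652 and 0.0859).

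Genes that fell, as HMOX1 and NQO1 did, were also found among heme and iron genes and detoxifying enzymes. Of 6 genes of heme and iron handling, 3 fell and 0 rose (median -0.37): FECH, the last enzyme of heme synthesis (-0.81), BLVRB, a biliverdin reductase (-0.58), and HMOX2, the constitutive heme oxygenase (-0.58). Of 12 genes of carbonyl and quinone detoxification, 6 fell and 1 rose (median -0.43). The aldehyde dehydrogenase gene ALDH3A1 fell by 0.87, the carbonyl reductase gene CBR3 by 0.74 and the epoxide hydrolase gene EPHX1 by 0.59. Without control replicate 3, FECH and CBR3 missed the threshold (limma adjusted p = 0.0554 and 0.0505). CES1, a carboxylesterase gene, rose by 2.34 (5.48 ± 0.17 in shFRY and 3.14 ± 0.23 in control samples, SD, n = 3 each). This was the largest difference of the 87 genes in the 8 lists. CES1 has 1 probe set, which is of the _s_at kind, and its control signal lay close to the median of all values (3.04). Export pumps other than ABCC2 were split, with 2 of 5 higher and 1 lower (median 0.06). ABCC3, a basolateral pump (0.70), and ABCC4 (0.68) rose, and ABCC5 fell (-0.77). For ABCC3, 2 of 5 probe sets were called higher, and without _s_at and _x_at probe sets the gene was at -0.04. For ABCC5, 1 of 3 probe sets was called lower, and the mean of its probe sets was at -0.24 (limma adjusted p = 0.231).

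Over all 8 lists, 17 of 87 measured genes rose and 33 fell, with a median of -0.17, against 13.7% higher, 16% lower and a median of 0.03 over all genes. Counts of single lists of 5 to 21 genes stand against these same shares, and some, such as the 2 of 13 higher thioredoxin and antioxidant genes, are close to them. Of these 87 genes, 8 rose and 7 fell by at least 2-fold. The lists were chosen with results of these samples known, so their counts are no independent evidence of a direction. The shFRY samples also exceeded the control samples by 0.35 in the beta-actin 3′ minus 5′ signal, whose part was not tested gene by gene beyond the fit with it as a covariate, in which 6 of the 87 genes were called higher and 3 lower. In that fit ABCC4 was at 0.30 and BLVRB at -0.29 (limma adjusted p = 0.511 and 0.579).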

How the data were processed

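RNA from 6 cultures of MCF10A clones, 3 with an shRNA against FRY and 3 with a non-targeting shRNA, had been hybridised to 1-colour arrays of 54675 probe sets, 62 of them controls. Per the submitters' processing notes, the deposited log2 values were made with RMA, whose version and settings no source used here names. This method usually corrects background, equalises the arrays' distributions and summarises probes, so a change shared by all genes cannot be seen. Values were used as deposited. Sample medians lay between 3.02 and 3.04 in shFRY and between 3.05 and 3.06 in control samples. The groups did not overlap in them either (difference -0.028, two-sided exact permutation p = 0.1). The number of arrays limits the precision.

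Probe sets were named through GEO's platform annotation, updated by Entrez ID to RefSeq symbols. Of them 41091 had 1 symbol (41037 found in RefSeq, 54 kept), 1801 several and 11721 none. limma 3.58.1 in R 4.3.3 (lmFit, eBayes) compared shFRY with control, once over the 54613 probe sets other than controls, used for the members, and once over 19775 genes, each represented by its probe set with the highest mean, used for the lists. Benjamini-Hochberg adjustment covered each whole table, 4 residual degrees of freedom remained, and the threshold was 0.05. Figures were drawn with matplotlib 3.10.9.

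The members, lists, tests and alternatives were chosen with earlier results of these data known. Named genes are the 9 members, up to 4 called genes per list with the largest absolute difference, and the 3 genes most like NFE2L2. Of 93 listed pathway genes 87 were measured; the rest were not analysed here. Same-numbered samples did not deviate together (r = -0.00242 to 0.00684 over genes), so the replicate numbers do not pair them. Alternatives were centring, quantile normalization, eBayes options, a filter on dim probe sets, array weights, the replicate block, the beta-actin covariate, leaving out samples, other ways to represent a gene and a 2-fold minimum. On simulated data with 200 of 54613 probe sets changed, the test recovered 8.96%, 58.2% and 87.9% of those changed 1.5-fold, 2-fold and 4-fold. In these data 23.1% of probe sets were called, and the adjustment is stricter when few probe sets change. The simulated shares therefore cannot be read as the recovery reached here, although small differences may be missed. The strand of the promoter windows was checked through the TATAA box 35 to 25 bases before the start, found in 648 of 17329 windows of minus-strand genes as written and in 101 if turned round (605 and 136 of 17787 for plus-strand genes).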

Additional observations from a re-analysis of the deposited data

How the results depend on the processing

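Member probe sets called higher numbered 2 and called lower 7. Leaving out 1 sample gave 0 to 2 higher and 6 to 7 lower. At the gene level it gave 1 to 2 members higher (2 with all samples) and 4 lower throughout, 16 to 17 other pathway genes higher and 23 to 33 lower, and 2051 to 2646 of all genes higher and 2388 to 3120 lower. NFE2L2 at 201146_at was lost in 5 of 6 such fits, GCLM 236140_at in 4 and SRXN1 in 1, that without control replicate 2, and without that sample 0 member probe sets were called higher. With the beta-actin covariate 0 member probe sets were higher and 3 lower, 0 member genes higher and 2 lower (NQO1 and HMOX1), 6 other pathway genes higher and 3 lower, and 545 of all genes higher and 481 lower. Standard errors grew in that fit, from 0.10 to 0.20 at KEAP1 and from 0.10 to 0.21 at NQO1 201467_s_at. The parts of these larger errors, of fewer degrees of freedom and of the shift itself in the lost calls were not tested. A 2-fold minimum, which by construction removes small differences, left 0 and 5 member probe sets, 0 and 3 member genes, 8 and 7 other pathway genes, and 677 and 807 of all genes (higher and lower). With each gene taken as the average over its probe sets, 1 member gene was higher, NFE2L2 being lost (limma adjusted p = 0.0519), and TXNRD1 changed sign to 0.0086. Without _s_at and _x_at probe sets 10 other pathway genes were higher, NQO1 had no probe set left, and ABCC3 changed sign to -0.037. With the replicate block GCLM 236140_at was lost (limma adjusted p = 0.0539) as were TKT (0.0517) and TALDO1 (0.0636), and it changed no other call of a member or named gene; same-numbered samples share only a number. Quantile normalization added NFE2L2 1567013_at (0.0433).

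Apart from ABCC3, signs changed at uncalled differences near 0. NFE2L2 1567015_at ranged from -0.048 to 0.069 when 1 sample was left out, and was at -0.021 with quantile normalization and between -0.048 and -0.00038 without control replicate 3 or shFRY replicate 3. GCLC 202922_at was at 0.0028 with centring, 0.067 with quantile normalization and, with 1 sample left out, between -0.12 and 0.065 (0.056 without control replicate 3). GCLC 1555330_at ranged from -0.015, without control replicate 2, to 0.20. GCLM 234986_at was at -0.0092 with array weights and between -0.14, without shFRY replicate 3, and 0.11 with 1 sample left out (-0.0018 and -0.037 without control replicates 1 and 3). The causes were not tested. GCLC 1555330_at and TXNRD1 1561080_at lay in the lower part of all signals, where RMA compresses differences.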
